A study of Mus musculus with 8 samples.

Results

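Long-tail poly(A) RNA was compared between cultured mouse hippocampal neurons in which Cnot7 had been knocked down and neurons that carried a scrambled hairpin. The comparison used 4 of the 8 libraries of the study, 2 knockdown and 2 scrambled, and described the genes whose mean over those 4 libraries reached 20 TPM. TPM is a measure of relative transcript abundance, a share of each library corrected for transcript length, and the deposited values are rounded to whole numbers. Of 23845 genes in the table, 6379 (26.8%) passed this level, and they held between 93.5% and 94.7% of the TPM of each long-tail library. The lowest genes inside had a mean of 20 TPM and the highest genes outside had 19.75 TPM.

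The neurons were primary cells from embryonic day 19 mice, and no group carried a genetic modification other than the virus, as far as the labels say. A lentivirus delivered the short hairpin RNA (shRNA), either the scrambled control or the one aimed at CNOT7, at 13 to 15 days in vitro, and RNA was collected at 17 to 19 days in vitro. Polyadenylated RNA was bound to poly(U) agarose. In the long-tail groups the agarose was first washed at 50 °C, a step described as taking off tails shorter than 50 nucleotides, and the rest was eluted at 75 °C. In the total groups everything was eluted at 75 °C without that wash. The labels describe a single hairpin against CNOT7, so no second hairpin enters the comparison, and they do not state whether a group's libraries came from separate cultures. The p-values below therefore measure the spread between these libraries, which may be technical. A long-tail TPM is a gene's share of the washed fraction and not a tail length.

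CNOT7 is a catalytic subunit of CCR4-NOT, which trims poly(A) tails of cytoplasmic mRNAs. Shortening of the tail is usually the first step of mRNA decay, and in neurons tail length is also tied to translation of stored and dendritic mRNAs. RNA-binding proteins such as the Pumilio proteins, tristetraprolin relatives and the microRNA machinery bring the complex to chosen mRNAs through sequences in their 3′ untranslated regions (3′UTRs). The comparison asks which mRNAs took a larger or smaller share of the long-tail fraction when Cnot7 was lowered.

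The second knockdown long-tail library differed most from the rest, and results are given with each knockdown library on its own for that reason. Across the 6379 genes the correlation of log2(TPM + 1) between the knockdown long-tail libraries was 0.942, against 0.978 between the scrambled ones; these are across genes, which are not independent replicates. The first principal component over the 8 libraries took 49.2% of the variance. It placed knockdown long-tail library 2 at −35.4, the other long-tail libraries between −7.56 and −4.54, and the total libraries between 7.92 and 17.3. Rn45s, the ribosomal RNA precursor, took 17.2% and 7.46% of TPM in scrambled libraries 1 and 2, 18.6% in knockdown library 1 and 2.90% in knockdown library 2. More than 2-fold differences between the knockdown libraries were found for 304 genes (4.77%), 92 higher and 212 lower in library 2, against 33 genes (0.517%) between the scrambled libraries.

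The cultures held neuronal and glial RNA. Neuronal markers fixed for this check, such as Tubb3 and Snap25, summed to 4214 and 4520 TPM in the scrambled and 4798 and 5603 TPM in the knockdown long-tail libraries. Within this set Tubb3 was higher and Map2 lower in knockdown. Excitatory markers summed to 3398 and 3019 TPM in the scrambled and 3666 and 3414 TPM in the knockdown libraries. Astrocyte markers summed to 5512 and 5146 TPM in the scrambled and 5234 and 4101 TPM in the knockdown libraries, so the label of cultured neurons covers a mixed culture by this measure. Oligodendrocyte lineage markers summed to 1615 and 2011 TPM in the scrambled and 1080 and 1363 TPM in the knockdown libraries. Microglia markers summed to 17 TPM or less, with 4 of 10 at 0 in all 4 libraries. Endothelial and mural markers summed to 188 and 288 TPM in the scrambled and 165 and 333 TPM in the knockdown libraries. Most of this was Acta2 (162 and 265 against 138 and 318 TPM), and 2 of the 8, Cldn5 and Pecam1, were at 0 in all 4 libraries. In such bulk samples, fewer cells of a type and less RNA per cell cannot be told apart.

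Cnot7 itself (chr8:40492540-40515847, minus strand, mm10) was lower in both knockdown libraries. It measured 28 and 31 TPM in the scrambled long-tail libraries and 9 and 11 TPM in the knockdown ones, or 29.5 ± 2.12 against 10 ± 1.41 TPM (SD, n = 2 libraries each), which is 2.95-fold lower with no overlap. With a mean of 19.75 TPM it lay just under the level for inclusion. In the same limma model fitted to the 8899 genes that reached a mean of 10 TPM, the difference was −1.48 on the log2(TPM + 1) scale (SE 0.214) with a Benjamini-Hochberg adjusted p of 0.0201. Total RNA gave 42 and 36 TPM in scrambled and 12 and 16 TPM in knockdown libraries, a fall of the same kind (difference −1.42, adjusted p 0.0251 in that fit). The authors' deposited table lists Cnot7 in long tails at −1.18 on the log2 scale, with an adjusted p of 1.02e-05.

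Of the 6379 genes, 12 (0.188%) were called in long-tail RNA at an adjusted p under 0.05 by limma, 7 higher (0.11%) and 5 lower (0.0784%) in knockdown. None of the 12 differed more than 2-fold between the knockdown libraries, and all 12 kept the scrambled and knockdown libraries apart in long tails and also in total RNA. Separation of the libraries alone was common: in long tails 1951 genes (30.6%) did not overlap between the groups, 916 higher (14.4%) and 1035 lower (16.2%). In total RNA 2235 genes (35%) did not overlap. An unadjusted p under 0.05 was reached by 534 genes (8.37%), 193 higher (3.03%) and 341 lower (5.35%), where 319 would fall there if no gene differed. That fit drew its spread from all 8 libraries. With only the 4 long-tail libraries in the fit, 272 genes had such a p, fewer than 319, and none was called. By group means, 21 genes (0.329%) were at least 2-fold higher and 17 (0.266%) at least 2-fold lower. After quantile normalization an unadjusted p under 0.05 was reached by 376 genes on the higher side and 262 on the lower, and 8 genes were called, 6 higher and 2 lower. The median difference over all genes was −0.04. No gene was called when either scrambled long-tail library was left out, and 422 were called without knockdown library 1, so the count rests on single libraries.

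Gap43, Uchl1 and Fbxl16 had the largest differences among the genes that rose. Gap43 (chr16:42248442-42340651), which encodes a phosphoprotein of axonal growth cones, measured 103 and 117 TPM in scrambled and 416 and 615 TPM in knockdown long-tail libraries. Its mean rose 4.69-fold, a difference of 2.19 (SE 0.231, adjusted p 0.00146, limma), and the higher value was in knockdown library 2. Uchl1 (chr5:66676091-66687234) encodes a ubiquitin hydrolase that is abundant in neurons. It measured 444 and 362 TPM in scrambled and 1563 and 1931 TPM in knockdown libraries, a 4.33-fold rise (difference 2.11, SE 0.267, adjusted p 0.00468). Fbxl16 (chr17:25809085-25821255), an F-box protein with leucine-rich repeats, measured 107 and 89 TPM in scrambled libraries and 330 and 331 TPM in knockdown libraries. That is a 3.37-fold rise (difference 1.75, SE 0.252, adjusted p 0.0103), and the knockdown libraries gave nearly the same value.

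Elmo1, Pusl1 and Enoph1 rose from lower levels. Elmo1 (chr13:20090596-20608353), a partner of DOCK proteins in activating the GTPase Rac, measured 20 and 16 TPM in scrambled and 51 and 52 TPM in knockdown libraries (2.86-fold, difference 1.47, SE 0.241, adjusted p 0.0198). Pusl1 (chr4:155887879-155891781) encodes a pseudouridine synthase-like protein, and its values were 15 and 13 against 34 and 41 TPM (2.68-fold, difference 1.36, SE 0.212, adjusted p 0.0155). Enoph1 (chr5:100039985-100068760), the enolase-phosphatase of the methionine salvage pathway, gave 15 and 21 against 38 and 52 TPM (2.50-fold, difference 1.28, SE 0.226, adjusted p 0.0393). For each of the 3 genes both knockdown libraries lay above both scrambled libraries. At these levels rounding to whole TPM is a visible part of each value. Without knockdown library 2, Pusl1 and Enoph1 had adjusted p of 0.0682 and 0.110, while Elmo1 had 0.0476.

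Genes that fell included a mitochondrial carrier, an AMPA receptor partner and a membrane flippase subunit. Slc25a22 (chr7:141429744-141437892), a mitochondrial glutamate carrier, measured 244 and 222 TPM in scrambled and 76 and 96 TPM in knockdown libraries, 2.71-fold lower (difference −1.44, SE 0.218, adjusted p 0.0132). Shisa6 (chr11:66211725-66525964), an auxiliary subunit of AMPA-type glutamate receptors, measured 53 and 46 against 21 and 13 TPM, 2.91-fold lower (difference −1.52, SE 0.241, adjusted p 0.0158). Both genes separated the groups, and Shisa6 was lowest in knockdown library 2 while Slc25a22 was lowest in knockdown library 1. Ahcyl2 (chr6:29768011-29912310), a relative of S-adenosylhomocysteine hydrolase, measured 72 and 73 against 30 and 25 TPM, 2.64-fold lower (difference −1.37, SE 0.203, adjusted p 0.0115). Tmem30a (chr9:79768943-79793507), the accessory subunit of phospholipid flippases of the P4-ATPase family, measured 128 and 158 against 62 and 61 TPM, 2.33-fold lower (difference −1.20, SE 0.215, adjusted p 0.0421). Without knockdown library 2 the adjusted p of Tmem30a was 0.0717, and those of Slc25a22, Shisa6 and Ahcyl2 were 0.0134, 0.0476 and 0.0277.

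**Figure D1:**
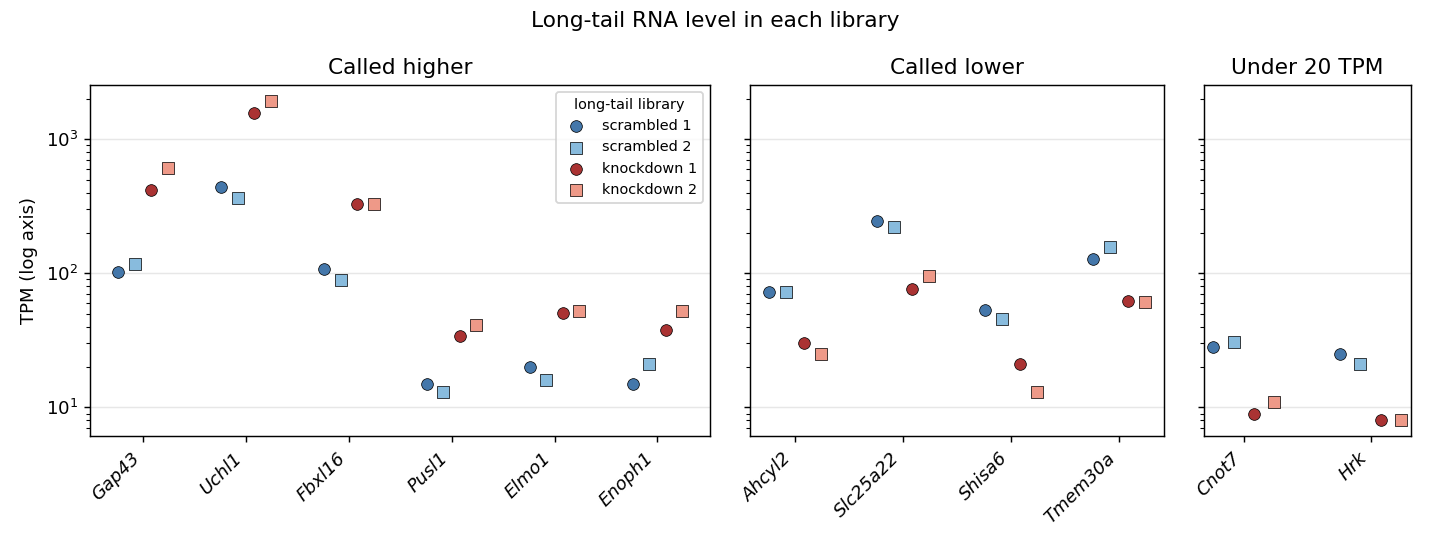
TPM (log axis) of 6 genes called higher, 4 called lower, and Cnot7 and Hrk, whose mean lay under 20 TPM, in each of the 4 long-tail libraries (circles library 1, squares library 2; blue scrambled, red knockdown). For every gene shown the blue and red points do not overlap, and Gap43 spans 103 to 615 TPM.

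**Figure D2:**
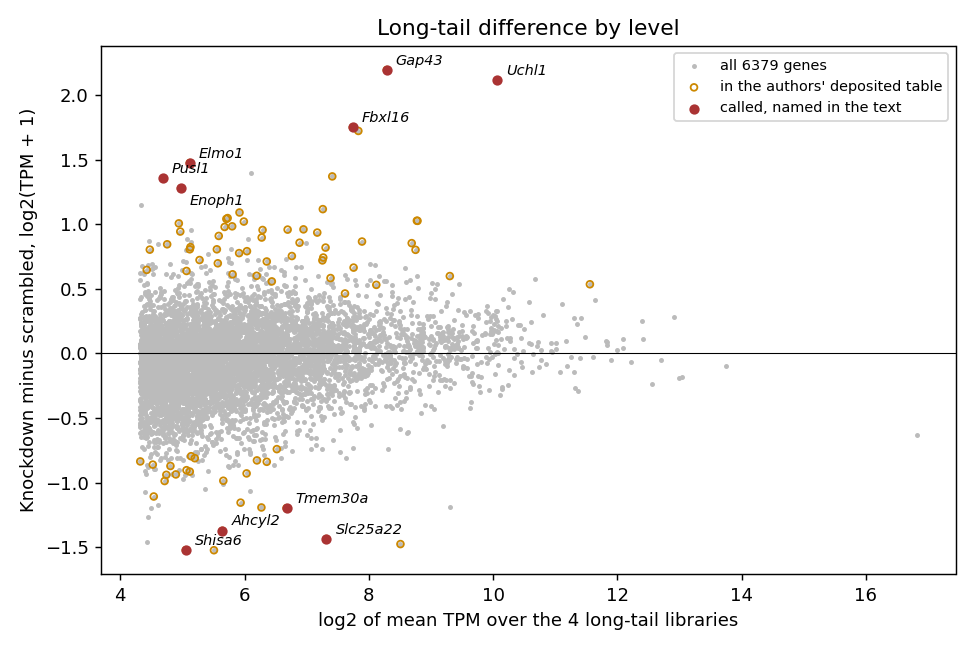
Knockdown minus scrambled difference in log2(TPM + 1) against log2 of the mean TPM over the 4 long-tail libraries, for 6379 genes (grey), with the genes of the authors' deposited table ringed and 10 called genes in red. The named genes lie from −1.52 to −1.20 and from 1.28 to 2.19, outside the body of grey points.

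Hrk and Cdkl2, which the authors' deposited table ranks among its smallest adjusted p-values, also lay under the level for inclusion and were read in the fit at 10 TPM. Hrk, a pro-apoptotic BH3-only protein, measured 25 and 21 TPM in scrambled and 8 and 8 TPM in knockdown libraries, and fell by 1.41 on the log2 scale (SE 0.197, adjusted p 0.0201, limma). Cdkl2, a CDC2-like kinase, measured 7 and 9 against 19 and 19 TPM, a difference of 1.16 with an adjusted p of 0.0672. The deposited table gives −1.28 for Hrk and 1.13 for Cdkl2.

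Pumilio proteins are one of the known routes by which CCR4-NOT reaches an mRNA, so the 3′UTRs of the called genes were searched on the transcript strand for their recognition element, TGTANATA. Sequences and positions come from GENCODE M21 on the mm10 build. The element occurred once in the 3′UTR of Cnot7. It was also in 3 of the 7 genes called higher and in 1 of the 4 genes called lower that have an annotated 3′UTR, and Fbxl16, Elmo1 and Tmem30a, with 1 copy each, are among these. The sites are at chr8:40493923-40493946 (Cnot7, minus strand), chr17:25821129-25821152 (Fbxl16, plus strand), chr13:20607501-20607524 (Elmo1, plus strand) and chr9:79769258-79769281 (Tmem30a, minus strand). They are shown 5′ to 3′ on the transcript strand with the element in capitals, since Fbxl16 and Elmo1 rose while Tmem30a fell.
Cnot7: cacatgctTGTATATAggttttat
Fbxl16: tttcttatTGTACATAacgacctc
Elmo1: ctttttcaTGTATATAtataatac
Tmem30a: actcctgtTGTAAATAggaagaat
All 4 matches lie in 3′UTR sequence, and a match of letters is not a measured binding site. Gap43, Uchl1 and Pusl1 held neither this element nor the cytoplasmic polyadenylation element TTTTAT nor the AU-rich element TATTTAT in their annotated 3′UTRs. Slc25a22, Ahcyl2 and Tmem30a each held 2 copies of the AU-rich element. Of all 6172 genes with an annotated 3′UTR, 23.4% held the Pumilio element, 50.0% the cytoplasmic polyadenylation element and 25.3% the AU-rich element; longer 3′UTRs hold more matches by length alone.

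The authors' deposited table for long tails lists 97 genes, 63 higher and 34 lower in knockdown, and 77 of them (1.21% of the genes described here) were among the 6379, 53 higher (0.831%) and 24 lower (0.376%). All 77 had the same direction in the TPM and in each knockdown library taken alone, and their scrambled and knockdown libraries did not overlap. Of these, 76 had an unadjusted p under 0.05 by limma and 11 were called. Of the 12 called genes, Pusl1 is the one that the deposited table does not list. The 53 higher genes had a median difference of 0.73 in knockdown library 1 and 0.93 in library 2, and the 24 lower genes −0.88 and −1.03. The table and the TPM come from the same libraries, so their like directions are a description of one data set.

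Further genes lay close to the threshold. Prkag2, a regulatory subunit of the AMP-activated kinase, measured 29 and 39 TPM in scrambled and 65 and 76 TPM in knockdown libraries (difference 1.04, adjusted p 0.0793, limma). Copz1, a subunit of the COPI vesicle coat, gave 100 and 92 against 187 and 234 TPM (1.12, adjusted p 0.0806). Pccb, a subunit of propionyl-CoA carboxylase, gave 36 and 38 against 67 and 82 TPM (0.98, adjusted p 0.0882). None of the 3 was called, and in each the groups did not overlap. On the lower side, Gnl3l, a nucleolar GTPase, measured 80 and 89 against 45 and 31 TPM (−1.15, adjusted p 0.0626), and Gpr158, an orphan receptor of neurons, measured 30 and 34 against 17 and 12 TPM (−1.11, adjusted p 0.0626).

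Some of the widest differences did not pass the test because the libraries of a group differed. Calb2, the calcium buffer calretinin and a marker of interneurons, measured 72 and 113 TPM in scrambled and 168 and 328 TPM in knockdown libraries (difference 1.37, SE 0.320, adjusted p 0.127). Prrt1, which encodes an AMPA receptor-associated membrane protein, measured 47 and 28 against 127 and 74 TPM (1.39, SE 0.484, adjusted p 0.462). Their standard errors exceeded the median of 0.220 over all genes.

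No gene of the deadenylation and tail machinery was called among the 6379. Of 18 genes listed for the CCR4-NOT complex and its TOB and BTG partners, 11 were among the 6379 and none had an unadjusted p under 0.05. Of the 11, 9 were negative, beside 3591 of all 6379 genes. Their median difference was −0.16 (−0.06 in knockdown library 1, −0.13 in library 2) beside −0.04 over all genes. Cnot8, the paralogous catalytic subunit, measured 55 and 64 TPM in scrambled and 45 and 54 TPM in knockdown libraries (difference −0.26, SE 0.207). Cnot1, the scaffold, measured 30 and 33 against 31 and 15 TPM, so its difference of −0.52 came from knockdown library 2. Among 20 genes for poly(A) polymerases, poly(A)-binding proteins, CPEB proteins and other tail factors, 17 were negative. Their median was −0.13 (−0.01 in knockdown library 1, −0.15 in library 2). An unadjusted p under 0.05 was reached by 1 of them, on the higher side, beside 3.03% of all genes. This was Nudt21, a cleavage factor subunit that helps choose poly(A) sites, with 56 and 55 against 93 and 78 TPM (0.61, adjusted p 0.421). Of 29 genes of decapping and decay, Lsm14b was higher (42 and 46 against 62 and 74 TPM, adjusted p 0.380) and Ago1 lower (32 and 33 against 28 and 14 TPM, adjusted p 0.505) at an unadjusted p under 0.05. Neither was called.

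Genes of sterol synthesis leaned higher in knockdown. Of 21 listed genes among the 6379, 18 had a positive difference (2772 of all 6379 did). Of these 21, 13 kept the knockdown libraries above the scrambled ones (14.4% of all genes did) and none the reverse. An unadjusted p under 0.05 on the higher side was reached by 5 (3.03% of all genes). None was called. Tm7sf2, a sterol reductase of the pathway, measured 30 and 20 TPM in scrambled and 45 and 46 TPM in knockdown libraries (difference 0.87, SE 0.316, adjusted p 0.497). Mvk, the mevalonate kinase, measured 49 and 33 against 69 and 64 TPM (0.71, adjusted p 0.514), and Mvd, the decarboxylase of the same branch, 58 and 36 against 97 and 75 TPM (0.89, adjusted p 0.505). The list's median was 0.34, with 0.38 in knockdown library 1 and 0.36 in library 2, and 0.30 in total RNA. The scrambled libraries also differed: library 1 lay a median of 0.16 above their mean and library 2 as far below it. Over all genes scrambled library 1 lay at −0.08. The list's median ran from 0.23 to 0.44 over 26 other settings. Those that changed only the variance model or left out a total library could not move it.

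Oligodendrocyte lineage genes leaned lower. All 11 listed genes among the 6379 had a negative difference (3591 of all 6379 did). Of the 11, 7 did not overlap on the lower side (16.2% of all genes did) and 6 had an unadjusted p under 0.05 (5.35% of all genes). None was called. Mbp, the myelin basic protein, measured 414 and 661 TPM in scrambled and 155 and 227 TPM in knockdown libraries, 2.81-fold lower (difference −1.47, SE 0.275, adjusted p 0.0548), and without knockdown library 2 its adjusted p was 0.0262. Values varied within the list: Cnp and Bcas1 had differences of −0.52 and −0.50, and Olig2, a lineage factor chosen for mention after its value was seen, had −0.07. The list's median was −0.50, with −0.40 in knockdown library 1, −0.51 in library 2 and −0.51 in total RNA. Of 27 listed astrocyte genes, 22 were also negative, with a median of −0.17 (−0.29 in knockdown library 1, −0.09 in library 2). Among these 27, 4 did not overlap on the lower side and 1 on the higher side (16.2% and 14.4% of all genes). Scrambled library 1 had a median of −0.19 from the scrambled mean for the same genes. Whether the summed oligodendrocyte level bears on other genes of the comparison was not tested.

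Neuronal gene lists held single genes that moved in either direction. In the growth cone list of 34 genes, Gap43 was called, and Klc1 (262 and 310 against 498 and 680 TPM, adjusted p 0.126) and Basp1 (490 and 514 against 725 and 798 TPM, adjusted p 0.505) did not pass; 4 genes were higher (3.03% of all genes were) and 2 lower (5.35% of all genes) at an unadjusted p under 0.05, and the median was −0.01. Among 34 tubulins, neurofilaments and microtubule-associated proteins, 13 did not overlap on the higher side (14.4% of all genes) and 4 on the lower side (16.2% of all genes). Tubb3, the neuronal beta-tubulin, measured 271 and 307 against 527 and 657 TPM (difference 1.03, adjusted p 0.121), and Mapre3, a microtubule plus-end protein, 179 and 157 against 298 and 315 TPM (0.87, adjusted p 0.211). Map2, the dendritic microtubule-associated protein, went the other way with 152 and 195 against 134 and 89 TPM (−0.65, adjusted p 0.513). The median of this list was 0.09.

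Receptor and channel genes were mixed. Of 20 genes for glutamate receptors and their auxiliary subunits, Shisa6 was called lower, and Gria3 (37 and 43 against 30 and 23 TPM), Gria4 (22 and 31 against 19 and 17 TPM) and Shisa9 (32 and 39 against 26 and 24 TPM) had an unadjusted p under 0.05 with adjusted p of 0.485, 0.579 and 0.559. These 4 genes stand beside 5.35% of all genes that were lower at that p. The list's median was 0.08, with 0.20 in knockdown library 1 and −0.15 in library 2. GABA receptor genes had a median of −0.20, with 0.17 and −0.38 in the knockdown libraries, so the sign of both lists turned with the library. Among 26 voltage-gated channel genes the median was −0.23, with −0.07 in knockdown library 1 and −0.35 in library 2, and Kcnip2, the partner of Kv4 potassium channels, had the smallest p with 76 and 59 against 29 and 37 TPM (−1.01, adjusted p 0.127).

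Several large lists differed between the knockdown libraries. Of 82 cytosolic ribosomal protein genes, 69 had a positive difference, beside 2772 of all 6379. An unadjusted p under 0.05 was reached by 1 of the 82 on the higher side, beside 3.03% of all genes (Rpl35a, 388 and 437 against 472 and 765 TPM, adjusted p 0.589). Their median was 0.11 over both libraries, −0.22 in knockdown library 1 and 0.42 in library 2. Nuclear genes of oxidative phosphorylation had −0.29 and 0.30, and 32 proteasome subunits had −0.01 and 0.37, with 30 of them positive and none at an unadjusted p under 0.05. Leaving out library 2 leaves these library 1 medians by construction, so it is no further result. The 9 interferon-stimulated genes also lay higher in library 2, with −0.61 in library 1 and 0.08 in library 2. Scrambled library 1 likewise lay below the scrambled mean for these lists. The medians were −0.13 for ribosomal, −0.10 for oxidative phosphorylation, −0.13 for proteasome and −0.12 for interferon-stimulated genes, beside −0.08 over all genes.

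**Figure D3:**
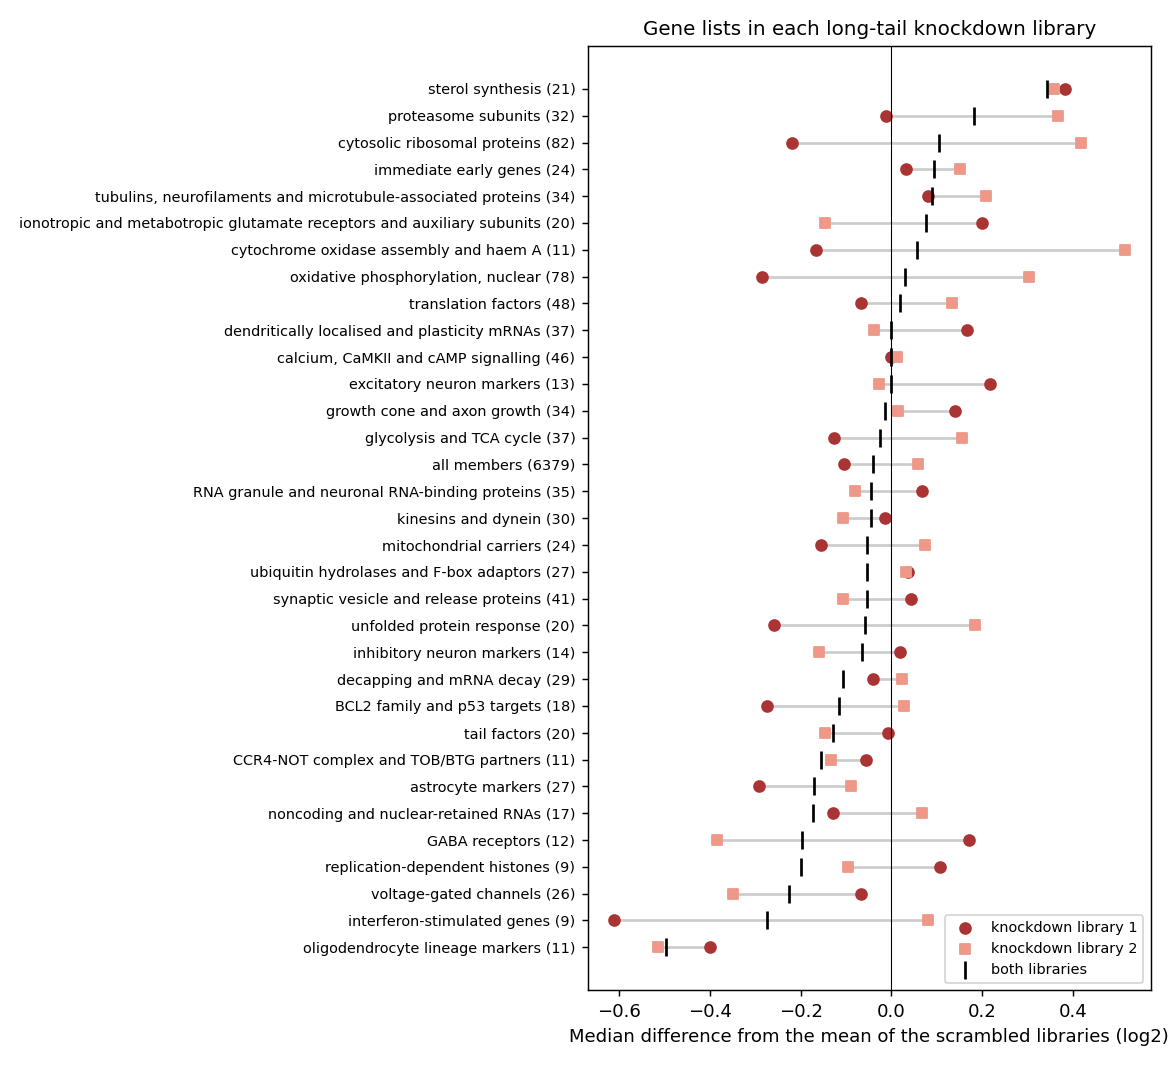
Median log2 difference from the mean of the scrambled long-tail libraries for each gene list with at least 9 genes (number in brackets), in knockdown library 1 (dark circles), library 2 (light squares) and both (bars). Sterol synthesis and oligodendrocyte lineage genes have both libraries on the same side of 0, and so do several other lists, among them voltage-gated channels. Ribosomal proteins run from −0.22 to 0.42.

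Transcript length moved with the difference in knockdown library 2. Among 6266 genes with an annotated protein-coding transcript, the 1254 with the shortest transcripts (up to 1465 bases) had a median difference of 0.31 in that library and the 1253 with the longest (over 4463 bases) −0.45. In knockdown library 1 the same sets had −0.17 and −0.02. Over both long-tail knockdown libraries they had 0.06 and −0.24, and over both total knockdown libraries −0.03 and −0.07. Spearman's rho between length and difference across these genes was −0.61 in library 2 and 0.19 in library 1, a description only, since all genes share the same libraries. Of the genes with an unadjusted p under 0.05 among the longest transcripts, 19 were higher and 169 lower, against 43 higher and 14 lower among the shortest. By GC content of the transcript, the median difference over both libraries ran from −0.19 in the lowest of 5 equal sets to 0.08 in the highest. The scrambled libraries also differed from each other by GC content: the median of library 2 minus library 1 ran from 0.33 in the lowest set to 0 in the highest. The part of length, GC content and Rn45s in the single results was not tested. After the length trend was taken out of each library, a step chosen after the data were seen, 33 genes were called and 9 of the 12 were among them.

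Annotated 3′UTRs differed in length between the deposited directions. The 20 lower genes of the authors' table with a 3′UTR had a median of 2098 bases, the 52 higher genes 939 bases and all 6172 genes 911 bases. The Pumilio element was in 40.0% of the lower and 19.2% of the higher genes, beside 23.4% of all. Because length moved with knockdown library 2, these shares stand beside that trend and were not tested apart from it.

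**Figure D4:**
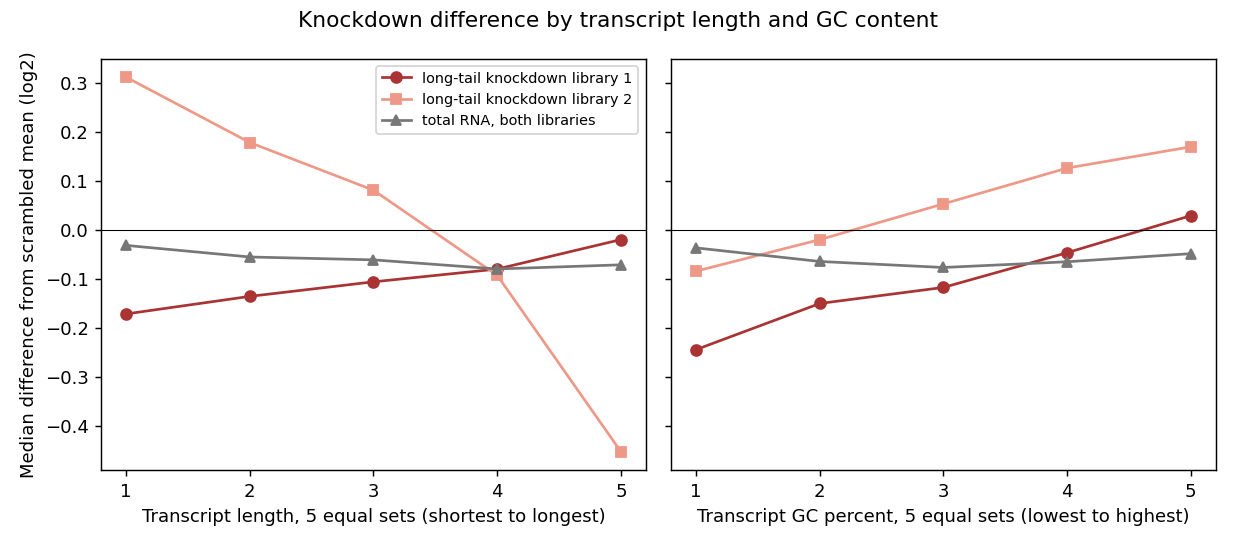
Median log2 difference from the scrambled mean in 5 equal sets of genes by transcript length (left) and by transcript GC percent (right), for long-tail knockdown library 1 (circles), library 2 (squares) and total RNA (triangles). Library 2 falls from 0.31 to −0.45 with length, and total RNA, taken over both its knockdown libraries, stays between −0.08 and −0.03. Over both long-tail knockdown libraries, not drawn, the median runs from 0.06 to −0.24 with length.

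Genes that set knockdown library 2 apart were not the called ones. Hist2h4, a replication-dependent histone gene, measured 39 and 16 TPM in scrambled and 29 and 2 TPM in knockdown libraries, and Zbtb20, a transcription factor, measured 83 and 40 against 118 and 15 TPM. Grin2b, a subunit of NMDA receptors, measured 61 and 34 against 67 and 8 TPM, while its total RNA values were 40 and 59 in scrambled and 39 and 64 TPM in knockdown libraries. Lsm5, a small decay factor subunit, was high in library 2 with 16 and 26 against 9 and 30 TPM. In all 4 genes the ranges of the scrambled and knockdown libraries overlapped. Tuba1c, an alpha-tubulin gene with near-identical paralogs that share reads, measured 150 and 6 TPM in scrambled and 149 and 5 TPM in knockdown long-tail libraries, and 191 and 4, and 167 and 4 TPM in total RNA, so it split the libraries by number and not by group.

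The long-tail differences of the called genes were close to those in total RNA. In total RNA 6 of the same 6379 genes (0.0941%) were called, 4 higher (0.0627%) and 2 lower (0.0314%), all of them among the 12. An unadjusted p under 0.05 was reached by 324 genes there (5.08%), 137 higher (2.15%) and 187 lower (2.93%). The 6 called genes included Gap43 (110 and 105 against 496 and 427 TPM), Uchl1 (428 and 282 against 1428 and 1072 TPM), Fbxl16 (165 and 103 against 468 and 353 TPM) and Slc25a22 (301 and 235 against 80 and 69 TPM). The difference between the fractions was tested as an interaction in limma, the long-tail difference minus the total one. No gene was called, and 0 genes had an unadjusted p under 0.05 (the smallest was 0.0590), where 319 would fall there if no gene differed. So few means that these p-values ran too large, so the absence of calls does not show that the fractions were alike. The fit took the fractions as independent, and the labels do not state whether they came from the same cultures. With the replicate number added to the model, 67 genes had such an interaction p. For the called genes the interaction lay between 0.083 and 0.391 in size, with a median 95% interval of ± 0.671 over all genes.

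Genes of the authors' long-tail table had like values in both fractions. The 53 higher genes had a median difference of 0.85 in long tails and 0.75 in total RNA, and the 24 lower genes −0.94 and −0.88; 48 of the 77 are also in the deposited table for total RNA. Shisa6 was 104 and 78 against 35 and 38 TPM in total RNA, a difference of −1.28 beside −1.52 in long tails. Tmem30a was 172 and 174 against 80 and 109 TPM, −0.88 beside −1.20. Slc25a22 went further in total RNA, −1.83 beside −1.44. Among all genes, 966 kept the groups apart in the same direction in both fractions and 6 in opposite directions.

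**Figure D5:**
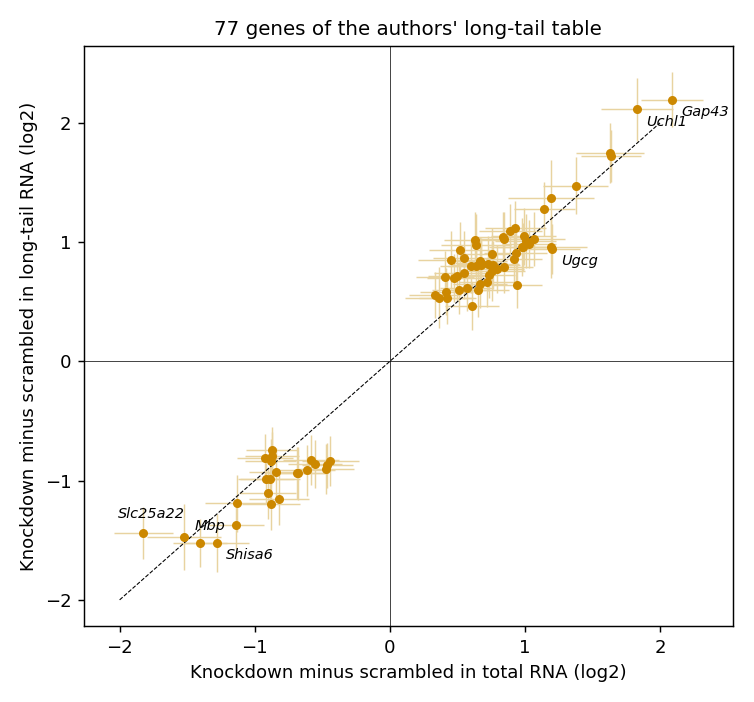
Knockdown minus scrambled difference in long-tail RNA against that in total RNA, in log2(TPM + 1), for the 77 genes of the authors' long-tail table; bars are standard errors and the dashed line marks equal differences. All points lie in the upper right or lower left, close to the line, from −1.83 for Slc25a22 in total RNA to 2.19 for Gap43 in long tails.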

How the data were processed

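The submitters' processing notes name the mm10 build and RSEM, TopHat2, CASAVA, DESeq and DESeq2, without roles or versions. The authors deposited TPM per gene, a score of relative abundance rounded to whole numbers (999689 to 999809 per library), so depth is unknown. Their deposited result tables hold, per the file headers, a mean normalized signal, a log2 fold change and a p-value; signs were turned to knockdown over scrambled. Every column of per-sample values was used. Names stood as dates for 27 genes (15 at 20 TPM or more), which are counted and not named.

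All 8 libraries were fitted on log2(TPM + 1) as 4 group means with limma 3.58.1 in R 4.3.3 (eBayes with trend, two-sided contrasts, Benjamini-Hochberg over 6379 genes), and the scripts were tested on simulated data. An exact permutation test of 2 against 2 libraries cannot give a p under 0.333. Cnot7, Hrk and Cdkl2 were read at a 10 TPM minimum, because Cnot7 missed the planned one. The genes, lists and rules were chosen with earlier results of these data known. Named genes were those called, those of smallest p, largest difference or smallest deposited adjusted p, up to 4 per list, and those that differed most between knockdown libraries or fractions. Some genes this takes are not reported here. GENCODE M21 matched 6333 genes, 6266 with a coding transcript. Alternatives changed the filter, pseudocount, scaling, variance model, replicate block and libraries.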

Additional observations from a re-analysis of the deposited data

How the results depend on the processing

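The count of genes called in long tails was 12, in total RNA 6 and in the interaction 0. With no filter on level the 3 counts were 61, 59 and 83. At 1 TPM they were 0, 32 and 7; at 5 TPM the long-tail count was 5, and at 10 TPM the total count was 10. A pseudocount of 5 gave 11 in total. Rescaling without Rn45s gave 1 and 2, equal medians 3 and 3, library weights 4 and 71, a robust variance model 11 in total. Removing the length trend, chosen after seeing the data, gave 33 and 38; removing the GC trend, also chosen then, gave 11 in total. With only the long-tail libraries, none was called (272 had an unadjusted p under 0.05), with or without the replicate number.

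The labels state no pairing by replicate number. With a replicate block over 8 libraries the counts were 250, 113 and 3, and all 12 genes were among the 250 (84 higher, 166 lower). It gave 67 genes an unadjusted interaction p under 0.05, against 0 without it. Deviations from group means of same-numbered libraries correlated at 0.297 to 0.769 in 5 pairs of groups (0.511 for the long-tail pair) and at −0.054 between knockdown long-tail and total ones. With the block on the 4 long-tail libraries alone, the count was 0.

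Leaving out 1 library moved the long-tail count between 0 and 422, the total count between 0 and 60 and the interaction count between 0 and 3. It was 0 without either scrambled long-tail library, 422 (63 higher, 359 lower) without knockdown long-tail library 1 and 15, 9 of them from the 12, without library 2; 33 and 31 without scrambled total library 1 or 2, and 6 without either knockdown total library.

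Cnot7 was lower throughout. Its difference of −1.48 had an adjusted p above 0.05 with no filter (0.158), at 1 TPM (0.175), at 5 TPM (0.0523), without Rn45s (−1.51, 0.0832), after quantile normalization (−1.34, 0.103), equal medians (−1.39, 0.0677), library weights (0.109), GC removal (−1.22, 0.0847), in the long-tail libraries alone (0.769) and there with the replicate block (0.603). Leaving out a library moved it from −1.61 to −1.34 (adjusted p 0.0127 to 0.399), and it was called in 3 of these 8 fits. Of genes with an unadjusted p under 0.05, 36.1% were higher, against 58.9% after quantile normalization (8 called, 6 higher), 59.5% with equal medians, 53.1% with length and 56.4% with GC removed. The cause of these moves was not tested.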
